A study of Mus musculus with 4 samples.

Results

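Estrogen acts in the testis through a short chain of proteins, and 5 genes of that chain were followed here. Cyp19a1 encodes aromatase, which makes estrogen from androgen. Sult1e1 encodes the estrogen sulfotransferase, which adds sulfate to estrogen so that it no longer binds its receptors. Esr1 and Esr2 encode the nuclear estrogen receptors alpha and beta, and Gper1 encodes a G protein-coupled membrane receptor for estrogen. The genes were listed by symbol, and a gene counted as measured where a probe set of the array carried its symbol alone. By that rule 4 of the 5 were measured, each by 1 probe set, among 19938 genes in all, and Cyp19a1 is not analysed here.

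The study compared Lhcgr KO with control WT testes of male mice. All the mice, controls included, received busulfan at 44 mg/kg and were killed 4 weeks later. Busulfan, an alkylating agent, kills most of the germ cells, so the RNA comes mainly from somatic cells and from a testis without normal spermatogenesis in either genotype. Lhcgr encodes the receptor for luteinizing hormone, the pituitary signal for Leydig cells to make testosterone, and its loss is genetic. Each group has 2 arrays. The sources used here do not give age, strain or the design of the null allele. They also do not say that replicates were separate animals, and a p-value then measures only the spread between the samples, which may be technical. The targeted gene itself is not analysed here and could not serve as a check of the genotypes.

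As background, androgens reach aromatase from cholesterol through enzymes of the Leydig cell, the steroid-making cell between the tubules. In mouse testis Sult1e1 is known as a Leydig cell gene whose level depends on luteinizing hormone and androgen. The nuclear receptors bind DNA as dimers and recruit coactivators, Esr1 being known in Leydig cells, peritubular cells and the efferent ducts.

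The tissue label was checked on marker genes. Sertoli cell genes were strong on every array, Sox9 lying between 11.35 and 11.68 log2 intensity units, and the summed intensity of 13 Sertoli cell markers ran from 46929 to 49369. The summed intensity of 13 Leydig cell markers was 29891 and 17624 on the wild-type arrays 1 and 2, and 7939 and 6909 on the knockout arrays. Of 13 spermatocyte and spermatid markers, 6 lay within weak signal on all 4 arrays. Wild-type array 2 stood apart: 9 of 20 markers of epididymal and efferent duct epithelium were more than 1 log2 unit above every other array there. One of these, the epididymal gene Adam7, measured 11.04 log2 intensity units on that array, while the other arrays lay between 5.68 and 5.92. Weak signal means here the 95th percentile of 170 probe sets for vomeronasal receptors, a family taken as a reference. Its absence from testis was not checked here. It lay at 113 and 95.5 intensity units on wild-type arrays 1 and 2, and at 122 and 114 on knockout arrays 1 and 2. In such bulk tissue, fewer cells of a type and less RNA per cell cannot be told apart.

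In the knockout testes Sult1e1 fell, Esr2 and Gper1 rose, and Esr1 did not pass the test. The sulfotransferase was 6.35-fold lower in the knockout, with its wild-type mean set against the weak-signal level of the knockout arrays. This figure leaves out a wide spread, being 16.8-fold for wild-type array 1 alone and 2.40-fold for wild-type array 2 alone. By the same rule Esr2, whose wild-type values lay in weak signal, was 1.55-fold higher. That figure leaves out the spread between arrays, and the 95% confidence interval of the measured change was 1.47 to 2.21. Gper1 was 1.74-fold higher (95% confidence interval 1.39 to 2.18). So 1 of the 4 measured genes was called lower and 2 were called higher (limma, Benjamini-Hochberg adjusted p under 0.05 over all genes). Over all genes, 3.1% were called, 0.963% as higher and 2.14% as lower. The members were chosen with earlier results of these arrays known, so their share is no independent support. In all 4 genes both knockout arrays lay on 1 side of both wild-type arrays, as held for 59.2% of all genes. Every call of these 3 genes was lost when either knockout array was left out, with adjusted p between 0.160 and 0.280.

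**Figure D1:**
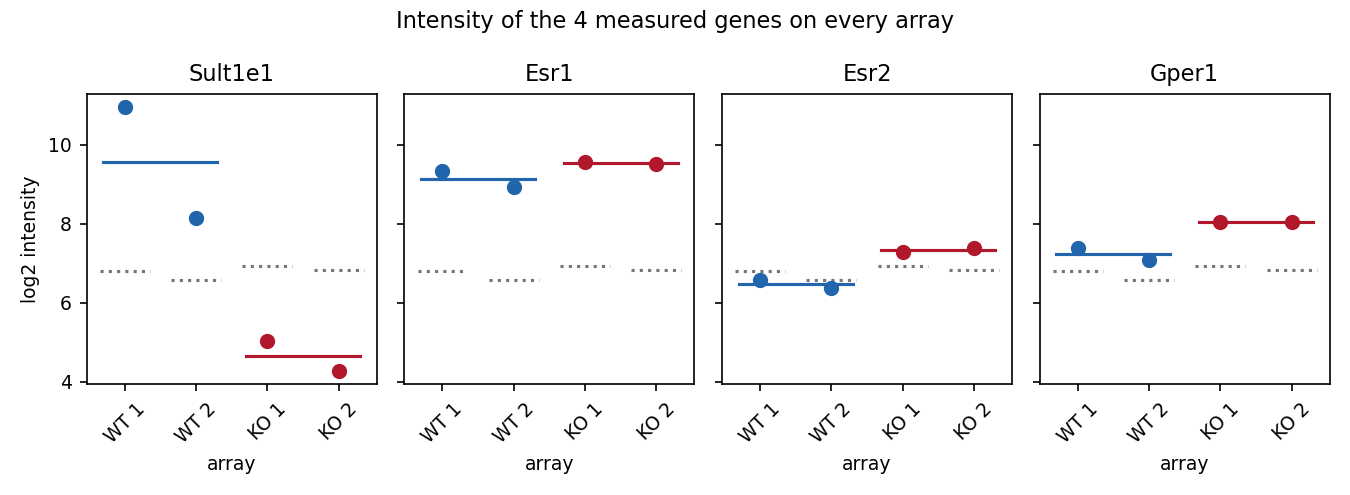
Log2 intensity (y axis) of Sult1e1, Esr1, Esr2 and Gper1 on each wild-type (WT, blue) and knockout (KO, red) array (x axis). Points are single arrays, solid lines group means of 2 arrays, and dotted marks the weak-signal level of that array. Sult1e1 drops from 10.96 and 8.14 to 5.04 and 4.27, under the dotted marks, while both knockout arrays lie above both wild-type arrays in the 3 receptor genes.

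The DNA just before the start sites of the 3 genes that passed the test is shown because they moved in different directions, and it allows their proximal promoters to be set side by side. The windows hold the 250 bases before each start, from RefSeq on GRCm38.p6, a build other than the mm9 that the submitters' processing notes name. Sult1e1 and Gper1 both lie on chromosome 5, and Esr2 on chromosome 12. The windows are chr5:87591612-87591861 on the minus strand for Sult1e1, chr12:76177260-76177509 on the minus strand for Esr2 and chr5:139422929-139423178 on the plus strand for Gper1. Each is written 5′ to 3′ along its gene, and capitals mark a match to any of the motifs searched.
Sult1e1: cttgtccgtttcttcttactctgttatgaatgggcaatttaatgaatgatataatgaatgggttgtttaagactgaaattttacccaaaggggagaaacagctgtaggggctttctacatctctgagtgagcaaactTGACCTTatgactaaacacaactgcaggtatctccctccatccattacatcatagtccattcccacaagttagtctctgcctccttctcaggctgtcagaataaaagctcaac
Esr2: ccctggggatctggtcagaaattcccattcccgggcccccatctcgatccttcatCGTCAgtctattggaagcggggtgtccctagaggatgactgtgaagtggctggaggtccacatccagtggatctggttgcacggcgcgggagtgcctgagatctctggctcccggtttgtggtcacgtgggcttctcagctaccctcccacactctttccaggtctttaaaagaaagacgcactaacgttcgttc
Gper1: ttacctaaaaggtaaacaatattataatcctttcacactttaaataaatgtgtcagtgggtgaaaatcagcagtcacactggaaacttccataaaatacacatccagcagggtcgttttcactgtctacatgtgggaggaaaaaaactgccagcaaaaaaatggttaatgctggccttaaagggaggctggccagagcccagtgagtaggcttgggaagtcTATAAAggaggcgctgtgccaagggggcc

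In the Sult1e1 window the capitals mark AAGGTCA read on the opposite strand, from 113 to 107 bases before the start. AAGGTCA is the extended half-site known to be bound by NR5A1 (SF-1), a factor that drives steroidogenic genes, and it contains the general nuclear receptor half-site AGGTCA. Of 32851 promoter windows of the same length, 4.08% held AAGGTCA and 14.0% held AGGTCA on either strand. In the Esr2 window they mark TGACG, the core of the cAMP response element, on the opposite strand, a match found in 17.8% of windows. In the Gper1 window they mark a TATAAA box from 29 to 24 bases before the start, found in 12.4%. The palindromic estrogen response element GGTCANNNTGACC and the androgen response element GAACANNNTGTTC were in none of the 3, and in 0.0639% and 0.0396% of all windows. The GATA site AGATAA (9.99%) and the GC box GGGCGG (32.7%) were in none of the 3 either. For Esr1, whose table holds 2 start sites, neither window held any of these motifs. The Sult1e1 window had a G and C content of 40.8%, against 44.0% for Gper1, 56.4% for Esr2 and a median of 52.4% over all windows. A match is a run of letters and does not show binding.

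Sult1e1 (probe set 10531111) measured 1985 intensity units on wild-type array 1, 282 on wild-type array 2, 32.9 on knockout array 1 and 19.3 on knockout array 2. The groups did not overlap, but the wild-type arrays differed 7.03-fold from each other. Both knockout values lay in the weakest 1% of genes, at the 0.512 and 0.0451 percentiles of their arrays, close to the lowest deposited value of just over 16. They were also under most vomeronasal receptor probe sets, 95.3% and 99.4% of which were at or above them.

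On the log2 scale the mean was 9.55 ± 1.99 (SD, n = 2) in wild type and 4.65 ± 0.55 in the knockout. The fitted change was -4.90 ± 0.81 on the log2 scale (SE, limma adjusted p = 0.0310). Since both knockout values lay in weak signal, the size of this change depends on the floor of the deposited values, and it was -3.79 with 32 units added before the log2 step and -6.46 with 16 subtracted. With the robust prior of eBayes, which lets genes of unusual variance keep more of it, the call was lost (adjusted p = 0.236). The fitted change was -3.49 without wild-type array 1 and -6.30 without wild-type array 2. Set against the weak-signal level of the knockout arrays, the fold was 16.8 for wild-type array 1 alone and 2.40 for wild-type array 2 alone.

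The spread within the wild-type pair was itself large for this gene. Of all genes, 31 differed more between the 2 wild-type arrays, 28 of them higher on array 2 and 3 higher on array 1. Of the 13 Leydig cell markers, 12 were higher on wild-type array 1, by a median of 0.60 log2 units over the list. This direction was not particular to them: 13 of 13 germ cell markers (median 0.37), 10 of 13 Sertoli cell markers (0.11) and 5 of 7 peritubular myoid cell markers were higher on that array too, as were 57.8% of all genes (median 0.04). None of the 10 macrophage markers was. The prostaglandin synthase Ptgds and the kallikrein Klk1b27 differed by 2.06 and 2.43, and Hsd17b3, the last enzyme of testosterone synthesis, by 2.26, against 2.81 for Sult1e1. Hsd3b6, the 3-beta-hydroxysteroid dehydrogenase of adult Leydig cells, did not follow, at 12.21 on wild-type array 1 and 12.32 on array 2. Between genotypes, 6 of the 13 Leydig cell markers were called lower and none higher, with a median log2 fold change of -1.79. Of all genes, 2.14% were called lower and 0.963% higher. The part of Leydig cell number in the Sult1e1 value was not tested.

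**Figure D2:**
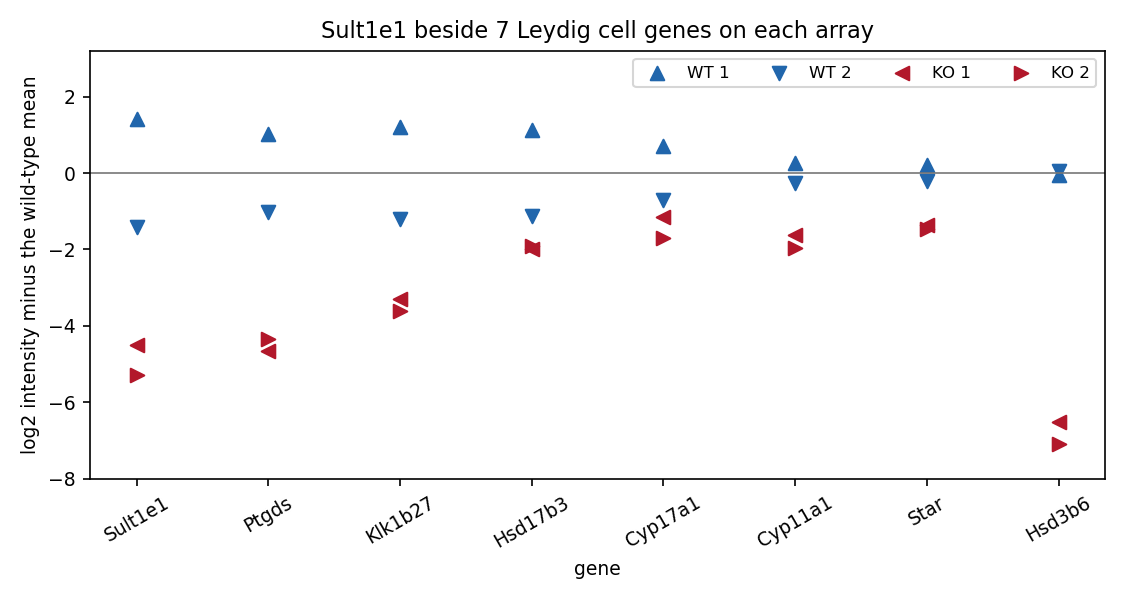
Log2 intensity minus the wild-type mean of each gene (y axis) for Sult1e1 and 7 of the 13 measured Leydig cell markers (x axis). Wild-type (WT) arrays are blue and knockout (KO) arrays red, with 1 symbol per array. The 7 genes were not chosen by a stated rule. Markers left out include Pcolce and Hsd11b1, with log2 fold changes of 0.13 and 0.06. Also left out were Fdx1 and Ces1d, whose wild-type arrays differed by 0.05 and 0.28. Sult1e1, Ptgds, Klk1b27 and Hsd17b3 show wild-type arrays more than 2 log2 units apart, while those of Hsd3b6 lie within 0.11.

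The genes with the pattern closest to Sult1e1 were found by the distance between log2 values over the 4 arrays, each gene centred on its own mean. The nearest was Ptgds, at a distance of 1.02 log2 units, with 11.37 and 9.30 on the wild-type arrays and 5.68 and 6.003 on the knockout arrays. Klk1b27 followed at 1.498, though its own change did not pass the test (log2 fold change -3.46 ± 0.68, limma adjusted p = 0.0519). It was called with the replicate block (0.0212), with the eBayes trend (0.0398) and without wild-type array 1 (0.000164) or 2 (6.84e-06). Ptgds and Klk1b27, like Sult1e1, lay in weak signal on both knockout arrays, so their distances also depend on the floor. Lcn2, a secreted carrier of iron-binding siderophores, came next at 1.63, and its wild-type arrays differed by 0.54. The 4 arrays are few points for such a distance, and these genes share the contrast that sets it.

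In the gene order of the reference table its nearest measured neighbours were the sulfotransferases Sult1b1 and Sult1d1 on one side and the milk casein genes Csn1s1 and Csn2 on the other. Sult1b1 and Sult1d1 lay in weak signal on all 4 arrays, so a fall could not have been seen in them and no fold is given. The casein genes were above it, with log2 fold changes of 0.29 for Csn1s1 and 0.06 for Csn2 that did not pass the test (limma adjusted p = 0.218 and 0.783).

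Esr1 (probe set 10367600), the alpha receptor, measured 644 and 488 intensity units on wild-type arrays 1 and 2, and 749 and 729 on knockout arrays 1 and 2. The knockout pair was closer together than the wild-type pair, whose lower value came from the array with epididymal signal. The 20 epididymal and efferent duct markers summed to 9066 and 16172 on the wild-type arrays, and to 9284 and 9875 on the knockout arrays. Wfdc10 alone lay between 12.74 and 12.86 log2 units on every array and made up a large part of each sum. The marker median was 6.78 and 8.53 log2 units on the wild-type arrays, and 6.81 and 6.90 on the knockout arrays. The part of these markers in the Esr1 values was not tested. The Esr1 means were 9.13 ± 0.28 (SD, n = 2) and 9.53 ± 0.03 log2 intensity units. The log2 fold change of 0.40 ± 0.15 did not pass the test (limma adjusted p = 0.202). Its interval without adjustment, 1.02- to 1.703-fold, includes changes close to none and changes near those of the other receptors. Without wild-type array 2 the change was 0.20, and without wild-type array 1 it was 0.60, and neither passed.

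Esr2 (probe set 10401035), the beta receptor, measured 95.2 and 83.3 intensity units on wild-type arrays 1 and 2, and 155 and 166 on knockout arrays 1 and 2. Both knockout arrays were higher, and the gap between the groups was 0.71 log2 units. The means were 6.48 ± 0.14 (SD, n = 2) and 7.33 ± 0.06, a measured difference of 0.85 ± 0.12 on the log2 scale (SE, limma adjusted p = 0.0207). Set against the weak-signal level of the wild-type arrays in place of the measured wild-type values, the difference was 0.63. The 95% confidence interval of the measured difference, 0.55 to 1.14, reaches below that value.

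The Esr2 probe set was weak. It lay under the weak-signal level on both wild-type arrays, where 12.4% and 10.0% of vomeronasal receptor probe sets were at or above it, and over that level on both knockout arrays. Weak probe sets were also somewhat higher on the knockout arrays in general. The 163 vomeronasal receptor genes had a median log2 fold change of 0.22, from -0.36 to 1.12, with 1 called higher and none lower, and 2 were at or above the change of Esr2. The median of all genes was 0.07.

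Gper1 (probe set 10526952), the membrane receptor, measured 168 and 135 intensity units on wild-type arrays 1 and 2, and 261 and 263 on knockout arrays 1 and 2. All 4 values lay above the weak-signal level, and the knockout arrays were nearly equal. The means were 7.23 ± 0.22 (SD, n = 2) and 8.03 ± 0.01 log2 intensity units, an increase of 0.80 ± 0.14 on the log2 scale (SE, limma adjusted p = 0.0343). The call was lost without wild-type array 2 (log2 fold change 0.64, adjusted p = 0.0693) and when 16 units were subtracted before the log2 step (adjusted p = 0.0590).

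**Figure D3:**
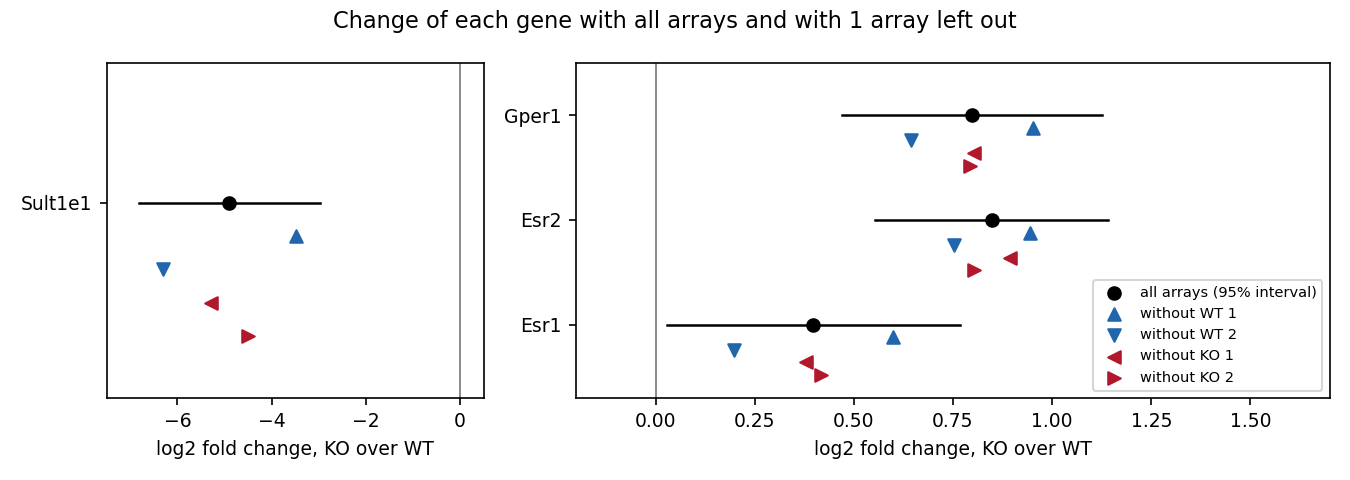
Log2 fold change, knockout over wild type (x axis, the left panel on its own scale), of each gene (y axis). Black points with 95% intervals use all 4 arrays, and triangles leave out 1 wild-type (blue) or knockout (red) array. Sult1e1 runs from -6.30 to -3.49, Esr2 from 0.75 to 0.94, Gper1 from 0.64 to 0.95 and Esr1 from 0.20 to 0.60, all with the sign of the full set.

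Esr2 and Gper1 had nearly the same pattern over the arrays. Both were called higher with close log2 fold changes, 0.85 and 0.80, and this shared contrast sets much of the distance. The wild-type values of Esr2 lay in weak signal. Their centred profiles were 0.112 log2 units apart, and 6 other genes were closer to Esr2 than Gper1 was. Esr1 lay 0.482 from Esr2 and 0.407 from Gper1. The genes nearest Esr2 were the phosphatase Cdc14b (0.0388), the mitochondrial protease Pitrm1 (0.0589) and the bone morphogenetic protein Bmp5 (0.0987). Those nearest Gper1 were Bmp5 (0.0420), the collagen Col15a1 (0.0843) and the membrane protein Tmem71 (0.0968). All 5 of these genes were called higher, with log2 fold changes from 0.71 to 0.90, which follows from choosing them by their likeness to genes that were called higher.

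Whether the beta receptor changed more than the alpha receptor was asked on the difference between their log2 values within each array. That difference was -2.76 and -2.55 on wild-type arrays 1 and 2, and -2.27 and -2.14 on knockout arrays 1 and 2. It was 0.45 higher in the knockout, and the groups did not overlap. The two-sided exact permutation test gave p = 0.333, the smallest that 2 arrays against 2 can give, so it could not have passed any usual threshold and decides nothing. The wild-type values also rest on Esr2 in weak signal.

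Genes around the chain were counted in 6 lists. Of 8 measured genes that supply androgen to aromatase, 3 were called lower, and the test called none of the other 5. The share of all genes called lower was 2.14%. Without adjustment, 6 of the 8 had a limma p under 0.05, where 22.7% of all genes did. The count called lower was 4 with the replicate block and without wild-type array 1, where 1 gene was also called higher, 5 without wild-type array 2, and 1 without either knockout array. Hsd3b6 measured 12.21 and 12.32 log2 units on the wild-type arrays and 5.75 and 5.17 on the knockout arrays, where it lay in weak signal (at least 41.8-fold lower, limma adjusted p = 0.000119). Cyp11a1, which cleaves the cholesterol side chain, and Star, which brings cholesterol into mitochondria, fell too, with log2 fold changes of -1.79 ± 0.21 and -1.41 ± 0.16. The list median was -1.42, against 0.07 for all genes. These genes were listed with their earlier results known.

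Enzymes that convert or break down estrogen did not pass the test, with 0 of 13 called by limma. The lowest p belonged to Hsd17b7 and Hsd17b1, both able to reduce estrone to estradiol. Hsd17b7 measured 8.75 and 8.59 on the wild-type arrays and 9.12 and 9.42 on the knockout arrays, a difference of 0.60 ± 0.14 (limma adjusted p = 0.0857). The difference for Hsd17b1 was 0.54 ± 0.17 (adjusted p = 0.147). The list ran from -0.60 to 0.60 with a median of 0.12, and 4 of the 13 lay in weak signal on all 4 arrays. An unadjusted p under 0.05 was reached by 3, where 22.7% of all genes reached it.

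No other gene of sulfation passed the test. Of 19 measured, among them 10 other sulfotransferases and the makers of the sulfate donor Papss1 and Papss2, 0 were called by limma, and 4 had an unadjusted p under 0.05, close to the share over all genes. Of the 10 sulfotransferases, 7 lay in weak signal on all 4 arrays, where a fall could not have been seen. The list median was -0.18 and its changes ran from -0.66 to 0.32, against the fitted -4.90 of Sult1e1. The lowest p belonged to Slc35b2, which carries the sulfate donor into the Golgi, and Bpnt1, a phosphatase that clears the by-product of sulfation. Their log2 fold changes were -0.66 ± 0.14 (limma adjusted p = 0.0614) and -0.46 ± 0.12 (adjusted p = 0.109). Both knockout arrays lay below both wild-type arrays for these genes, but the groups did not overlap in 59.2% of all genes either. Slc35b2 was called lower with the eBayes trend (adjusted p = 0.0496), the robust prior (0.0374), 32 units added (0.0488), the lowest 50% of genes left out (0.0448) and without wild-type array 2 (0.0274).

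Of 21 measured partners of the receptors, 1 rose and 1 fell, where 0.963% of all genes were called higher and 2.14% lower. In this list 3 had an unadjusted limma p under 0.05, where 22.7% of all genes did. Ppargc1a, a coactivator of nuclear receptors known for mitochondrial genes, rose from 7.69 and 7.62 to 8.61 and 8.87 log2 units (log2 fold change 1.09 ± 0.13, limma adjusted p = 0.0115). Fkbp5, a chaperone partner of steroid receptors that is itself induced by glucocorticoid and androgen, fell from 9.86 and 9.79 to 8.84 and 8.82 (-0.996 ± 0.11, adjusted p = 0.00884). The list median was 0.05.

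Of 24 genes known to respond to estrogen in other tissues, 2 rose and the other 22 were not called. Over all genes, 0.963% were called higher and 2.14% lower. With all arrays kept, 1 gene of this list was called lower with the lowest 50% of genes left out. The same held with the eBayes trend, the robust prior or 32 units added. These counts also moved when single arrays were left out. In the main fit 7 of the 24 had an unadjusted limma p under 0.05, where 22.7% of all genes did. Greb1, an estrogen-induced partner of the alpha receptor, measured 7.44 and 8.12 on the wild-type arrays and 9.56 and 9.34 on the knockout arrays. Its log2 fold change was 1.67 ± 0.22 (limma adjusted p = 0.0158), and the wild-type arrays differed by 0.67. Stc2, a secreted glycoprotein, measured 7.43 and 7.71 on the wild-type arrays and 8.44 and 8.39 on the knockout arrays (0.84 ± 0.13, adjusted p = 0.0273). The call of Stc2 was lost when 16 units were subtracted before the log2 step (adjusted p = 0.05003, just over the threshold). The progesterone receptor Pgr, a classical target picked out after its value was known, lay in weak signal on all 4 arrays, so no fold is given. The list median was 0.08, next to 0.07 for all genes.

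Regulators of aromatase were the last list, with 2 of 17 lower and none higher, against 2.14% and 0.963% of all genes. With all arrays kept, 1 gene of the list was called higher with the eBayes trend and with the robust prior. The counts of this list also moved when single arrays were left out. In the main fit 5 of the 17 had an unadjusted limma p under 0.05, where 22.7% of all genes did. Tgfb1, transforming growth factor beta 1, fell by 1.22 ± 0.11 (limma adjusted p = 0.00551). Ptges, which makes prostaglandin E, fell by 0.66 ± 0.13 (adjusted p = 0.0486), and this call was lost with quantile normalization (0.0710), with 16 units subtracted (0.0787) and without wild-type array 2 (0.131). Nr5a1, the factor known to bind the AAGGTCA half-site, showed a difference of 0.02 ± 0.17 (adjusted p = 0.946) and is named here for that motif. The list median was 0.13.

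Macrophage markers also differed between the genotypes, 5 of 10 being called lower in the knockout and none higher. Over all genes, 2.14% were called lower and 0.963% higher. Their summed intensity was 8348 and 10473 on wild-type arrays 1 and 2, and 4644 and 4891 on the knockout arrays. Sertoli cell markers counted 1 higher and 1 lower of 13. None of 7 peritubular myoid cell markers passed the test, which so few genes cannot set apart from the share over all genes. The part of cell composition in the receptor changes was not tested.

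**Figure D4:**
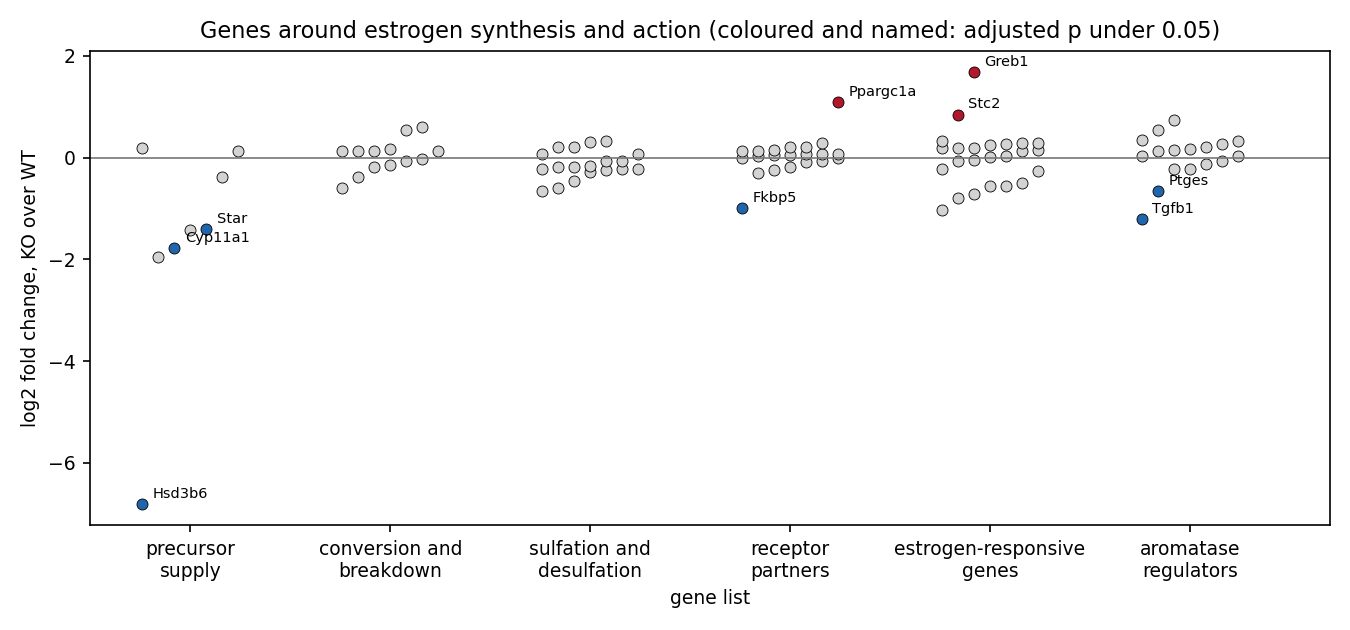
Log2 fold change, knockout over wild type (y axis), of every measured gene in the 6 lists (x axis). Each point is a gene, grey where it did not pass the test, and red (higher) or blue (lower) with its name where it did. Apart from 3 genes of precursor supply, 6 genes passed, and no list of conversion or sulfation genes holds one.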

How the data were processed

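Sense-strand cDNA was made from total RNA, given a biotin label and read on Affymetrix whole-transcript arrays in 1 colour, per the labels' protocols. The deposited table holds 1 linear intensity per probe set and array. The submitters' processing notes name the build mm9, and how probes were summarized, corrected and normalized is not given in the sources used here. Arrays had 28856 probe sets, medians from 198 to 215 and minima just over 16, which may compress folds of weak genes. Precision is limited by the number of arrays.

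Of the probe sets, 21789 had 1 symbol, 1621 several and 5446 none listed, and only the first kind was used. Symbols were checked by Entrez number against RefSeq (GRCm38.p6), where 21698 matched and 0 changed. The probe set with the highest mean stood for a gene. Values were taken to log2 and fitted with limma 3.58.1 (R 4.3.3; lmFit, eBayes, no covariates), with Benjamini-Hochberg adjustment over 19938 genes and a threshold of 0.05. The code was tested on simulated data. Motifs were searched on both strands.

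The members, lists and rules were chosen with earlier results of these data known. Lists came from general knowledge. Named were the members, up to 4 called genes of each list with the largest change (else the 2 with the lowest p), the 3 genes nearest each called member in profile and the 2 nearest measured genes on each side of Sult1e1. Alternatives were quantile normalization, median centring, leaving out the lowest 25% or 50% of genes, averaging probe sets, eBayes with trend or a robust prior, adding 32 or subtracting 16 (floor 4) before log2, the replicate number as a block and leaving out each array. The folds of Sult1e1, Esr2 and Hsd3b6 set against weak signal were added after their values were seen.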

Additional observations from a re-analysis of the deposited data

How the results depend on the processing

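Direction held for the 4 measured genes under every alternative in which they were fitted, and leaving out the lowest 50% of genes removed 3 of them. Sult1e1 kept its fitted log2 fold change of -4.90 but not its call under the robust prior (adjusted p = 0.236). Subtracting 16 units gave 0.87 for Gper1, no longer called (adjusted p = 0.0590), and 102 genes higher and 268 lower in all, against 192 and 426. Leaving out single arrays gave from -6.30 to -3.49 for Sult1e1, from 0.75 to 0.94 for Esr2 and from 0.64 to 0.95 for Gper1. Over all genes it gave from 2 to 313 genes higher and from 16 to 726 lower, the lowest counts without a knockout array and the highest without wild-type array 1. The cause was not tested, and a lone array is assumed there to vary like the other group. Over the other alternatives, Sult1e1 ran from -6.46 to -3.79, Esr2 from 0.67 to 0.98, Gper1 from 0.69 to 0.87 and Esr1, never called, from 0.38 to 0.48. The casein gene Csn2, at 0.06, turned to -0.035 with quantile normalization and -0.044 without wild-type array 2, with 0.16 as its highest value when an array was left out. Of the 25 further genes named, 16 were called, and 14 lost the call without knockout array 1 and 14 without knockout array 2. With the replicate block the 3 calls held (adjusted p = 0.00923 for Sult1e1, 0.0347 for Esr2 and 0.0440 for Gper1) around unchanged values of -4.90, 0.85 and 0.80, with 173 genes higher and 399 lower. Ptges and Tmem71 lost their calls with it, and Klk1b27 gained one. The numbers are not shown to pair the arrays: the differences between replicates 1 and 2 correlated at 0.0205 across genes between the genotypes. Weak signal limits Sult1e1 in the knockout and Esr2 in the wild type.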
